A study of Arabidopsis with 12 samples.

Results

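The HD-ZIP II genes encode transcription factors that join a homeodomain, which contacts DNA, to a leucine zipper, through which the proteins pair. The genes described here were taken by their locus identifiers: ATHB2 (AT4G16780), ATHB4 (AT2G44910), HAT1 (AT4G17460), HAT2 (AT5G47370), HAT3 (AT3G60390), HAT9 (AT2G22800), HAT14 (AT5G06710), HAT22 (AT4G37790) and ATHB17 (AT2G01430). All 9 were found among the 32833 genes of the deposited table, and all 9 were among the 19862 genes that reached at least 1 TPM in at least 3 libraries and were tested. TPM is a transcript level per length, scaled to the total of the library. The identifiers were used because the deposited table lists ATHB2 as HB-2, ATHB4 as HB4 and ATHB17 as HB17, and its description of both HAT1 and HAT2 names HB-4. No member overlaps another annotated gene in the RefSeq annotation of assembly TAIR10.1.

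Messenger RNA was captured by its poly(A) tail from leaves of Arabidopsis thaliana in 12 libraries, 3 in each of 4 groups. Wild-type Col-0 and the phytochrome A mutant phyA-211 were grown for 10 days in white light and then spent 6 h in shade with a red to far-red ratio of 0.17. During the shade the liquid medium held 30 mM sorbitol or 30 mM sucrose, so each genotype has a sorbitol group, the osmotic control, and a sucrose group. Every group was shaded, so the effect of shade itself was not measured. The labels do not say whether replicates came from separate cultures, so a p-value here reflects only how far these libraries scatter, and that scatter may be technical. Leaf material is a mixture of cells, and fewer cells of a type cannot be told apart from less RNA per cell.

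As background, a low red to far-red ratio inactivates phytochrome B, which releases the PIF transcription factors, and PIFs switch on ATHB2 within a short time. Phytochrome A remains active in far-red-rich light and holds back shade responses. ATHB2, HAT1, HAT2, HAT3 and ATHB4 are known as genes quickly induced by such light, and HAT3 and ATHB4 also take part in setting the upper side of the leaf. Many HD-ZIP II proteins carry an EAR motif and act as repressors through TOPLESS corepressors, and ATHB2 is known to repress its own gene.

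PHYA stood at 223 to 385 TPM in the 6 Col-0 libraries and at 32.5 to 44.9 TPM in the 6 phyA-211 libraries. The leaf markers, 6 antenna, Rubisco and Rubisco activase genes, summed to 22630 to 50563 TPM. Of the 8 root markers, RHD6 and PLT1 did not exceed 1.12 and 0.54 TPM, COBL9 and EXPA7 reached 2.08 and 6.53 TPM, and TIP2;3 reached 34.5 TPM. SHR, SCR and PYK10 were present in all libraries, at 8.77 to 15.9, 19.7 to 38.5 and 646 to 1799 TPM. Of the 4 meristem markers, WUS and CLV3 did not exceed 0.24 and 1.24 TPM, while STM stood at 2.83 to 4.26 TPM and KNAT1 at 10.6 to 19.0 TPM. One library, the third sucrose replicate of phyA-211, differed from the others, with a leaf marker sum of 22630 TPM against 37106 or more in the other 11 libraries and ASN1, a starvation-induced asparagine synthetase, at 4.07 TPM against 123 and 189 TPM in its group. Calls of the members and reported list counts that change without it are also given without it.

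Changes are differences on the log2(TPM + 1) scale from a limma fit over all 12 libraries, with the standard error (SE) and a Benjamini-Hochberg adjusted p over the 19862 genes. This scale understates changes of low genes. A gene is said to rise or fall where the adjusted p is under 0.05. Where libraries of 3 against 3 did not overlap, the exact 2-sided permutation p was 0.1, the smallest this design allows.

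The members spanned a wide range of levels. ATHB2 was the most abundant in every group and ATHB17 the least. Over the 12 libraries ATHB2 had a mean of 115 TPM, above 92.5% of the genes tested. The means of HAT2, HAT1, HAT3 and HAT22 were 51.0, 32.3, 22.4 and 20.4 TPM. The low members ATHB4, HAT9, HAT14 and ATHB17 had means of 8.97, 6.67, 3.38 and 1.35 TPM. In Col-0 with sorbitol the order was ATHB2, HAT2, HAT1, HAT22, HAT3, HAT9, ATHB4, HAT14 and ATHB17. Libraries of neighbours in that order overlapped for HAT2 and HAT1, for HAT22 and HAT3, and for HAT9 and ATHB4, so these pairs did not differ in level beyond their spread. In Col-0 with sucrose HAT1 and HAT2 overlapped, and no other neighbours did. In phyA-211 with sorbitol HAT2 stood clear of HAT1, and the overlaps were those of HAT1 with HAT22, HAT22 with HAT3, and ATHB4 with HAT9. With sucrose, the mutant had no overlap between neighbours.

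**Figure D1:**
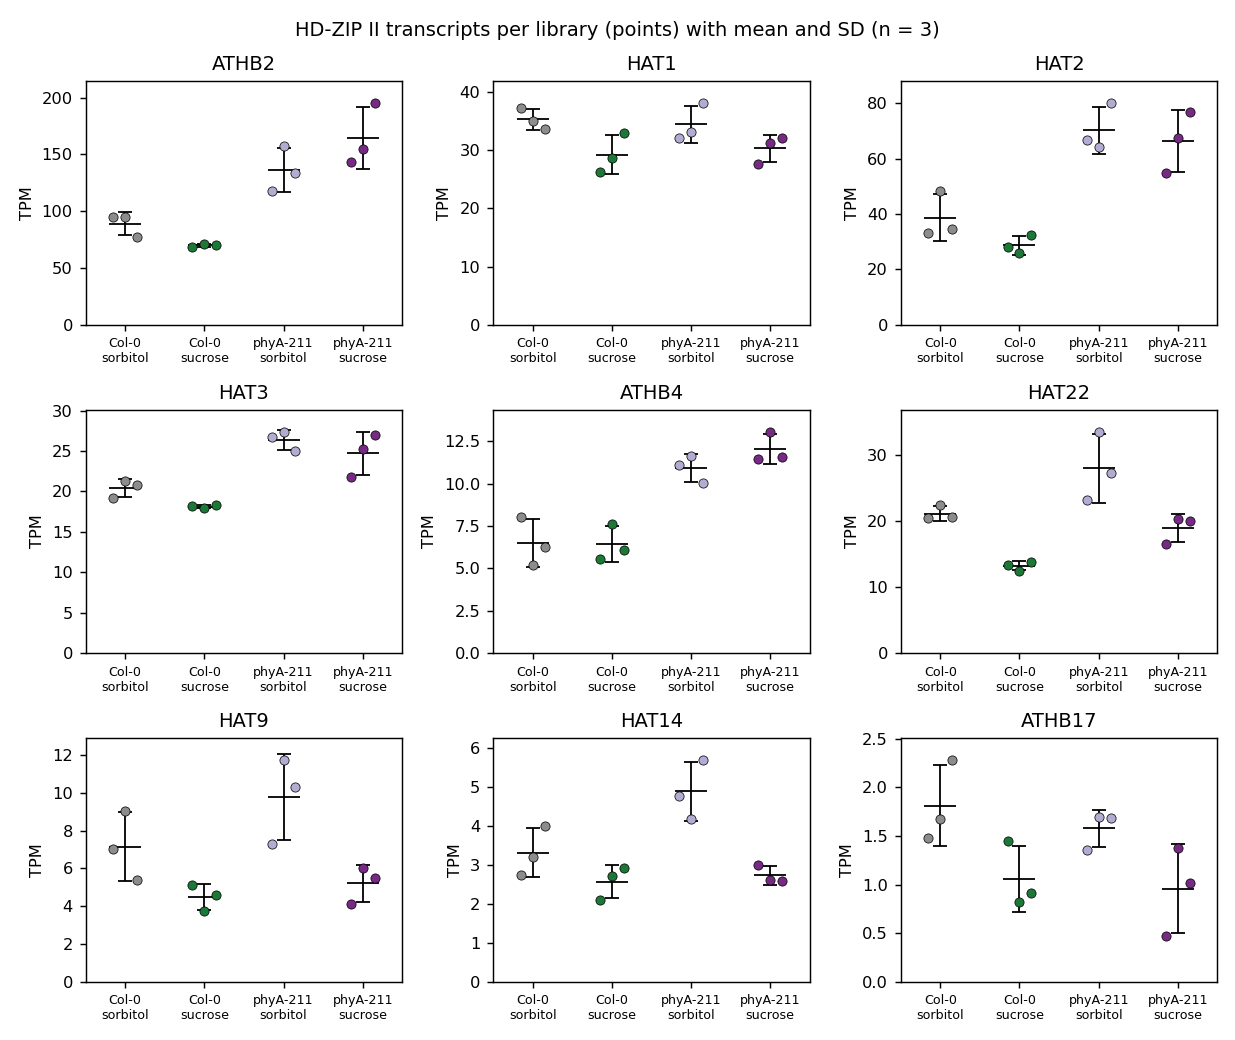
Transcript level in TPM of each HD-ZIP II gene in the 4 groups. Points are libraries in the order of their replicate numbers, and bars are the mean and SD (n = 3). The phyA-211 libraries of ATHB2, HAT2, HAT3 and ATHB4 lie above the Col-0 libraries under each sugar, and the HAT22 libraries lie lower with sucrose in each genotype.

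Loss of phytochrome A went with higher levels of ATHB2, HAT2, HAT3 and ATHB4. With sucrose these 4 of the 9 members rose in phyA-211 and none fell, while 4.15% of all genes tested were called higher and 3.25% lower. With sorbitol 2 of 9 rose (HAT2 and ATHB4) and none fell, against 0.775% of all genes called higher and 1.38% lower. The median change of the 9 members was 0.42 with sucrose and 0.40 with sorbitol, and that of all genes was 0.12 and 0.09. Median ratio scaling moved the median of all genes by -0.11 with sucrose and took the higher share of all calls there from 56.1% to 39.8%. Without phyA-211 sucrose replicate 3, 3 members rose under each sugar: ATHB2, HAT2 and ATHB4. In that fit 4.71% of all genes were called higher with sucrose and 1.61% with sorbitol. HAT1, the remaining shade-induced member, changed by 0.05 with sucrose and -0.04 with sorbitol.

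ATHB2, the classical shade marker that promotes elongation, showed the largest genotype difference with sucrose among the 9. Its Col-0 replicates 1, 2 and 3 measured 94.7, 95.3 and 77.1 TPM under sorbitol, then 68.5, 71.2 and 70.2 TPM under sucrose. The mutant replicates measured 118, 157 and 134 TPM under sorbitol, then 143.5, 155 and 195 TPM under sucrose. Every mutant library lay above every Col-0 library, and the highest value was that of the sucrose library with the low leaf marker sum. With sucrose the mutant mean was 165 ± 27.1 TPM against 69.95 ± 1.37 TPM (SD, n = 3), 2.35 times the Col-0 mean. The rise was 1.21 on the log2 scale (SE 0.144, adjusted p = 0.000444) and 1.08 without replicate 3 of phyA-211 with sucrose (adjusted p = 0.000882). With sorbitol the mean was 136 ± 19.6 TPM against 89.0 ± 10.4 TPM, a change of 0.61 (SE 0.144) that just missed the threshold at adjusted p = 0.0544. That change passed without replicate 3 of phyA-211 with sucrose (adjusted p = 0.0186), with median ratio scaling (0.53, adjusted p = 0.0228) and with quantile normalization (0.56, adjusted p = 0.0394).

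HAT2, an auxin-inducible member of the same subgroup, was also higher in the mutant under each sugar. Col-0 replicates measured 33.1, 48.5 and 34.5 TPM under sorbitol, then 28.0, 25.8 and 32.5 TPM under sucrose. Mutant replicates measured 66.7, 64.2 and 80.0 TPM under sorbitol, then 54.7, 67.6 and 76.8 TPM under sucrose. All 6 mutant libraries exceeded the highest Col-0 library. With sucrose HAT2 rose by 1.17 (SE 0.171, adjusted p = 0.00179), 2.31 times the Col-0 mean, and by 1.06 without replicate 3 of phyA-211 with sucrose (adjusted p = 0.00504). With sorbitol it rose by 0.86 (SE 0.171, adjusted p = 0.0233), 1.82 times the Col-0 mean. The sorbitol call was lost without Col-0 sorbitol replicate 1 (adjusted p = 0.134) or 3 (0.068), and without phyA-211 sorbitol replicate 1 (0.061) or 3 (0.135). It was also lost in a fit of the compared groups alone (adjusted p = 0.0617).

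HAT1, which acts in brassinosteroid responses and is close to HAT2, did not share this difference. Its replicates with sorbitol were at 37.3, 35.1 and 33.7 TPM in Col-0 and 32.2, 33.1 and 38.1 TPM in phyA-211. With sucrose they were at 26.2, 28.6 and 32.9 TPM in Col-0 and 27.6, 31.2 and 32.1 TPM in phyA-211. The genotypes overlapped under each sugar. The 95% interval of the genotype change ran from -0.29 to 0.21 with sorbitol and from -0.20 to 0.31 with sucrose, and the sign of both turned under some settings. The level of ATHB2 relative to HAT1 in the same library cannot be moved by a scale factor common to that library. This ratio was 2.29 to 2.72 in Col-0 with sorbitol and 2.13 to 2.61 with sucrose. In phyA-211 it was 3.52 to 4.75 with sorbitol and 4.98 to 6.08 with sucrose. The ratio was thus higher in all mutant libraries, and within the mutant the sucrose libraries lay above the sorbitol libraries.

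ATHB4 and HAT3, the paralogs with roles in leaf polarity, were also higher in the mutant, at lower levels. ATHB4 in Col-0 measured 8.01, 5.18 and 6.28 TPM under sorbitol, then 5.57, 7.62 and 6.11 TPM under sucrose. Its mutant replicates measured 11.1, 11.6 and 10.0 TPM under sorbitol, then 11.5, 13.1 and 11.6 TPM under sucrose. The genotypes did not overlap, while the sugars did within each genotype. With sucrose the rise was 0.82 (SE 0.158, adjusted p = 0.00963), 1.87 times the Col-0 mean, and 0.84 without replicate 3 of phyA-211 with sucrose (adjusted p = 0.0159). With sorbitol it was 0.69 (SE 0.158, adjusted p = 0.0492), 1.68 times the Col-0 mean. The sorbitol call stood at the threshold and was lost in 10 of the 12 fits that each left out a library (adjusted p up to 0.179), all but those without Col-0 sorbitol replicate 1 or phyA-211 sucrose replicate 3. It was also lost in 5 of 9 other settings: no filter (adjusted p = 0.0746), median ratio scaling (0.62, adjusted p = 0.0885), quantile normalization (0.60, adjusted p = 0.113), the compared groups alone (adjusted p = 0.123) and the replicate number as a block (adjusted p = 0.0796).

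HAT3 in Col-0 measured 19.1, 21.3 and 20.8 TPM under sorbitol, then 18.2, 17.9 and 18.3 TPM under sucrose. Its mutant replicates measured 26.7, 27.4 and 25.0 TPM under sorbitol, then 21.8, 25.3 and 27.0 TPM under sucrose. The genotypes were again separate under each sugar. With sucrose HAT3 rose by 0.42 (SE 0.105, adjusted p = 0.0327), 1.36 times the Col-0 mean. That call was lost without Col-0 sorbitol replicate 2 (adjusted p = 0.0533), phyA-211 sorbitol replicate 3 (0.0531), any of Col-0 sucrose replicates 1 (0.0604), 2 (0.13) and 3 (0.0802), or phyA-211 sucrose replicates 2 (0.115) and 3 (0.069). The same call was lost with median ratio scaling (0.30, adjusted p = 0.0886), with quantile normalization (0.30, adjusted p = 0.0918) and in a fit of the compared groups alone (adjusted p = 0.129). With sorbitol the change was 0.35 (SE 0.105, adjusted p = 0.132).

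None of HAT22, HAT9, HAT14 and ATHB17 was called between the genotypes. HAT22 came closest, with all mutant libraries above the Col-0 libraries under each sugar and changes of 0.48 with sucrose (SE 0.138, adjusted p = 0.0565) and 0.37 with sorbitol (adjusted p = 0.235). The sucrose change passed in 5 of 21 alternatives. Among these were median ratio scaling (0.37, adjusted p = 0.0492) and the fits without phyA-211 sorbitol replicate 1 (adjusted p = 0.0425) or 2 (0.0302). Mutant libraries of HAT14 exceeded Col-0 with sorbitol (0.45, adjusted p = 0.237) and overlapped with sucrose (0.07, adjusted p = 0.837). HAT9 libraries overlapped under each sugar (0.40 and 0.17 with sorbitol and sucrose), as did those of ATHB17 (-0.12 and -0.09). In all, mutant libraries lay entirely above Col-0 libraries for 6 of 9 members with sorbitol, against 13.4% of all genes, and for 5 of 9 with sucrose, against 19.2%. Leaf markers moved with genotype too. All 6 had values below 0 in phyA-211 under each sugar. Their medians were -0.48 with sorbitol and -0.63 with sucrose, against 0.09 and 0.12 for all genes. RBCS1B, a Rubisco small subunit, was the 1 called, against 1.38% of all genes called lower with sorbitol and 3.25% with sucrose. Without phyA-211 sucrose replicate 3, 4 of 6 were below 0 with sucrose (median -0.19), and CAB1 and LHCB2.1 were at 0.30 and 0.03. RBCS1B was again the 1 called there, against 3.43% of all genes called lower. With sorbitol 2 of the 6 leaf markers were called lower without that library, against 2.35% of all genes. Their part in the genotype difference was not tested.

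**Figure D2:**
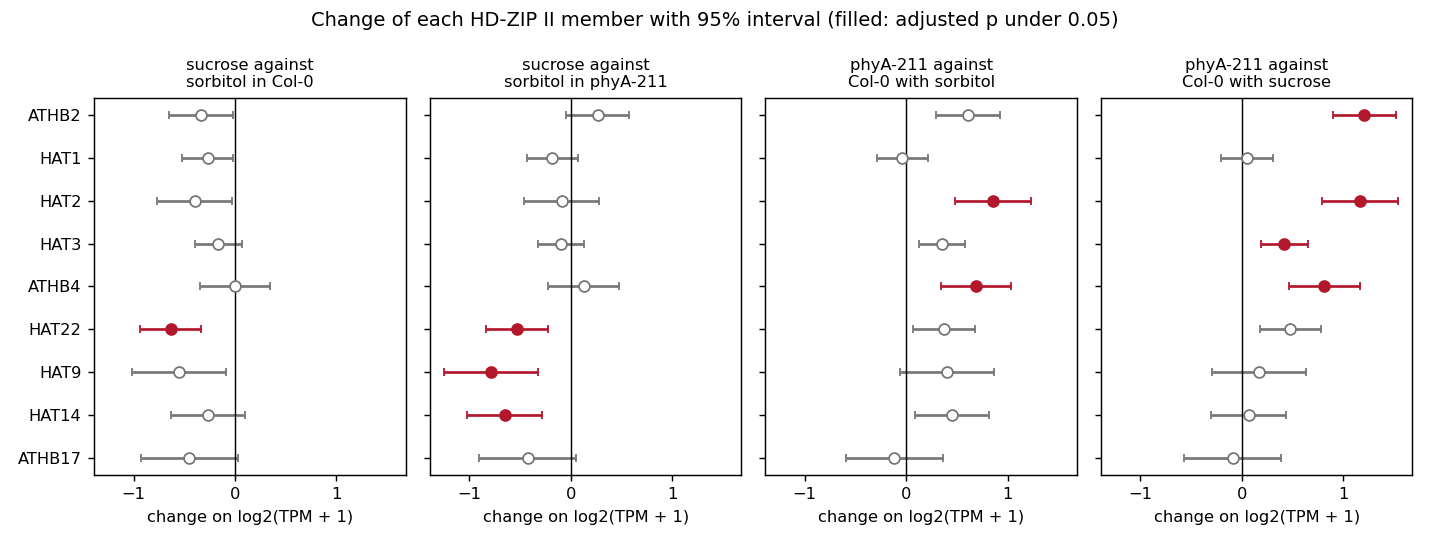
Change of each member on the log2(TPM + 1) scale in the 4 comparisons between groups of 3 libraries. Points are limma estimates, bars their 95% intervals, and filled points have an adjusted p under 0.05. ATHB2, HAT2, HAT3 and ATHB4 are filled to the right for phyA-211 against Col-0 with sucrose, and HAT22 is filled to the left for sucrose in each genotype.

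Sucrose went with lower levels of HAT22 in both genotypes and of HAT9 and HAT14 in the mutant, members outside the quickly shade-induced group. In Col-0 1 of 9 members fell (HAT22) and none rose, against 9.95% of all genes called lower and 12.1% higher. In phyA-211 3 of 9 fell and none rose, against 10.5% of all genes called lower and 16.9% higher. The median change of the members was -0.34 in Col-0 and -0.18 in phyA-211, while that of all genes was 0.08 and 0.11. Median ratio scaling moved the median of all genes by -0.13 in phyA-211 and took the higher share of all calls there from 61.6% to 48.4%.

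HAT22, linked to cytokinin responses and to chlorophyll loss in ageing leaves, measured 20.5, 22.5 and 20.6 TPM in Col-0 under sorbitol, then 13.4, 12.5 and 13.9 TPM under sucrose. Its mutant replicates measured 23.2, 33.6 and 27.3 TPM under sorbitol, then 16.6, 20.4 and 20.0 TPM under sucrose. No sucrose library reached a sorbitol library of its genotype, while mutant sucrose libraries came close to Col-0 sorbitol libraries. The fall in Col-0 was -0.64 (SE 0.138, adjusted p = 0.00801), from 21.2 ± 1.11 to 13.3 ± 0.718 TPM (SD, n = 3). It was called in all 12 fits that each left out a library and under all 9 other settings. In phyA-211 the fall was -0.53 (SE 0.138, adjusted p = 0.0172), from 28.0 ± 5.23 to 19 ± 2.11 TPM. This call was lost without phyA-211 sorbitol replicate 3 (adjusted p = 0.0564) or phyA-211 sucrose replicate 1 (0.0528) and in a fit of the compared groups alone (0.074), and kept without phyA-211 sucrose replicate 3 (-0.57, adjusted p = 0.03).

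HAT9, the paralog of HAT22, was at a lower level. In Col-0 it measured 7.05, 9.04 and 5.40 TPM under sorbitol, then 5.11, 3.76 and 4.61 TPM under sucrose. Mutant replicates measured 7.31, 11.7 and 10.3 TPM under sorbitol, then 4.13, 6.04 and 5.47 TPM under sucrose. Sorbitol libraries lay above sucrose libraries in each genotype. The fall passed in phyA-211 (-0.79, SE 0.212, adjusted p = 0.0193) and the change in Col-0 did not (-0.55, SE 0.212, adjusted p = 0.0825). The mutant call was lost without phyA-211 sorbitol replicate 2 (adjusted p = 0.051) or 3 (0.0733), or phyA-211 sucrose replicate 1 (0.0575) and in a fit of the compared groups alone (0.0531), and kept without phyA-211 sucrose replicate 3 (-0.82, adjusted p = 0.0404). The Col-0 change passed with median ratio scaling (-0.65, adjusted p = 0.0153) and quantile normalization (-0.64, adjusted p = 0.0129).

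HAT14 was low throughout and measured 2.74, 3.20 and 3.99 TPM in Col-0 under sorbitol, then 2.09, 2.72 and 2.91 TPM under sucrose. Its mutant replicates measured 4.78, 4.19 and 5.69 TPM under sorbitol, then 3.01, 2.61 and 2.58 TPM under sucrose. The sugars overlapped in Col-0 and were separate in the mutant. HAT14 fell in phyA-211 (-0.65, SE 0.168, adjusted p = 0.0162) and was not called in Col-0 (-0.27, adjusted p = 0.28). The mutant call was lost without phyA-211 sorbitol replicate 3 (adjusted p = 0.0771) and kept without phyA-211 sucrose replicate 3 (-0.62, adjusted p = 0.0456). Of the 8 root markers 6 were tested in the same comparison, with 3 changes above 0 and 3 below 0. Of these 1 was called lower, against 10.5% of all genes. It was the root aquaporin TIP2;3, at 5.89, 34.5 and 16.5 TPM under sorbitol, then 1.41, 4.90 and 3.85 TPM under sucrose. The call of TIP2;3 was lost without phyA-211 sucrose replicate 3 (adjusted p = 0.0754). The summed root markers of the mutant ranged over 842 to 1895 TPM under sorbitol and 904 to 1251 TPM under sucrose, nearly all of it PYK10. Without PYK10 the sums were 39.1 to 96.0 and 50.7 to 61.4 TPM, and their part in the result was not tested.

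ATHB17, a member tied to abscisic acid and stress responses, was near the lower limit of the test. In Col-0 it measured 1.48, 1.67 and 2.28 TPM under sorbitol, then 1.45, 0.82 and 0.91 TPM under sucrose. Mutant replicates measured 1.36, 1.69 and 1.68 TPM under sorbitol, then 0.47, 1.38 and 1.02 TPM under sucrose. The sugars were just separate in Col-0 and overlapped in the mutant. Its sucrose changes were -0.45 in Col-0 and -0.42 in phyA-211 (adjusted p = 0.165 and 0.168). The Col-0 change passed in 2 of the 20 alternative fits that held a value for ATHB17 (lowest adjusted p = 0.0412).

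No quickly shade-induced member was called for sucrose. Their changes in Col-0 were -0.34 for ATHB2 (adjusted p = 0.115), -0.40 for HAT2 (0.118), -0.27 for HAT1 (0.118), -0.16 for HAT3 (0.291) and 0 to 2 decimals for ATHB4 (0.992). All Col-0 sucrose libraries of the first 4 lay under all sorbitol libraries. Together with HAT22, HAT9 and ATHB17 this made 7 of 9 members with no overlap and lower values in Col-0, against 17.6% of all genes. Median ratio scaling called ATHB2 (-0.44, adjusted p = 0.0119) and HAT2 (-0.50, adjusted p = 0.0469) lower in Col-0, and quantile normalization called ATHB2 (-0.37, adjusted p = 0.0494). In phyA-211 the changes were 0.27 for ATHB2 (adjusted p = 0.185), -0.09 for HAT2 (0.729), -0.18 for HAT1 (0.269), -0.09 for HAT3 (0.529) and 0.13 for ATHB4 (0.575). Without replicate 3 of phyA-211 with sucrose, that of ATHB2 was 0.14. Libraries lay entirely lower with sucrose for 4 of 9 members in the mutant (HAT1, HAT9, HAT14 and HAT22), against 15.6% of all genes. HAT1 was just separate there, at 32.18 TPM or more with sorbitol and 32.08 TPM or less with sucrose.

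The difference between the genotypes in their sucrose response was tested as an interaction, the mutant's sucrose change less the wild type's. None of the 9 was called, and 0.0101% of all genes were. ATHB2 had the largest value, 0.60 (SE 0.203, 95% interval 0.16 to 1.05, unadjusted p = 0.012, adjusted p = 0.999). Without phyA-211 sucrose replicate 3 it was 0.48 (adjusted p = 0.611). ATHB2 was the 1 member with an unadjusted p under 0.05. Its Col-0 libraries were all lower with sucrose, and its mutant libraries overlapped between sugars. HAT2 had 0.31 (95% interval -0.22 to 0.84) and HAT14 -0.38 (-0.90 to 0.13), while the sizes of the other 6 did not exceed 0.23. Limma with libraries weighted by gene-by-gene estimates, added after seeing the data, called ATHB2 (0.60, adjusted p = 0.0159) and HAT14 (-0.66, adjusted p = 0.0364). That fit called 6.93% of all genes for the interaction.

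**Figure D3:**
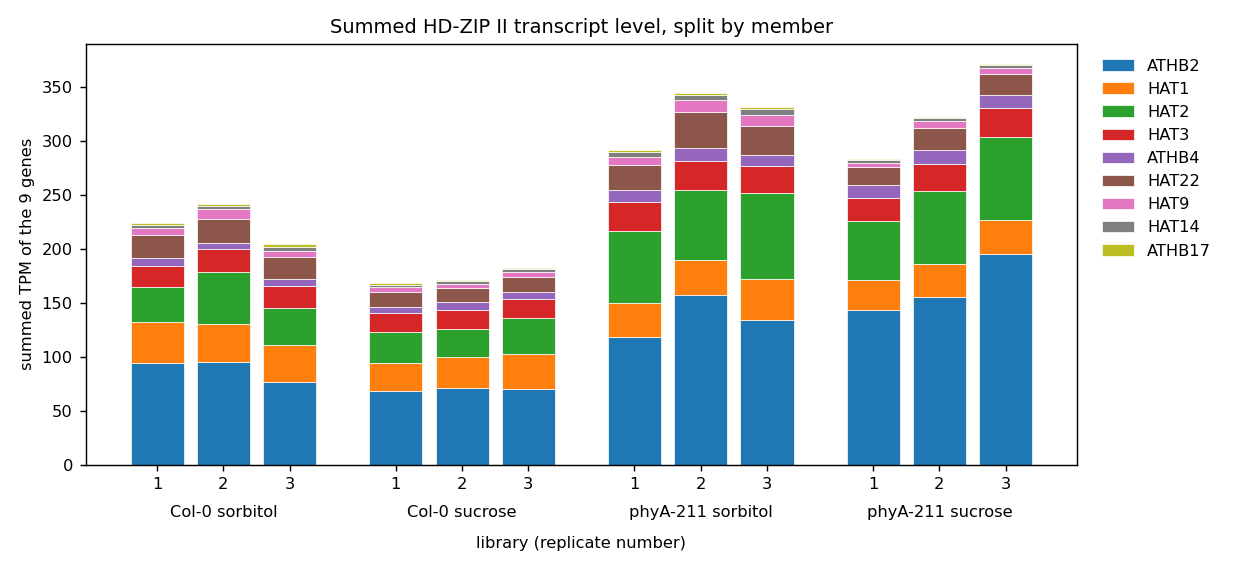
Summed TPM of the 9 HD-ZIP II genes in each library, split by member. Bars are libraries, numbered by replicate within the 4 groups. The Col-0 bars reach 168 to 242 TPM and the phyA-211 bars 283 to 372 TPM, with ATHB2 the tallest segment in each.

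The plot of summed levels shows how the make-up of the family differed. The 9 genes together reached 223 ± 18.5 TPM in Col-0 with sorbitol, 174 ± 7.43 TPM with sucrose, 323 ± 27.7 TPM in phyA-211 with sorbitol and 326 ± 44.3 TPM with sucrose (SD, n = 3). Every mutant sum was above every Col-0 sum, and the Col-0 sucrose sums were the lowest. ATHB2 made up 39.8 ± 2.34% of the sum in Col-0 with sorbitol, 40.3 ± 1.59% with sucrose, 42.2 ± 2.99% in phyA-211 with sorbitol and 50.4 ± 2.22% with sucrose. Its share in the mutant with sucrose, 48.1% or more, exceeded that of all other libraries. Without phyA-211 sucrose replicate 3 the mean sum of that group was 303 TPM and the ATHB2 share 49.4% (n = 2). HAT1, whose own level overlapped between genotypes under each sugar, made up a smaller share of the larger mutant sum. Its share was 14.5 to 18.04% in Col-0 and 8.63 to 11.5% in phyA-211. The combined level of HAT22, HAT9, HAT14 and ATHB17 was 33.5 ± 2.53 and 21.4 ± 1.40 TPM in Col-0 with sorbitol and sucrose, and 44.3 ± 7.31 and 27.9 ± 3.29 TPM in phyA-211.

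Of the 5 PIF genes, the upstream activators, 2 fell in the mutant with sorbitol, where 1.38% of all genes were called lower. With sucrose 1 rose and 1 fell, against 4.15% and 3.25% of all genes. PIF4, a growth-promoting PIF, fell in phyA-211 with sorbitol (-0.80, adjusted p = 0.0233) and with sucrose (-0.62, adjusted p = 0.0379). PIF7, the PIF most tied to shade, fell with sorbitol (-1.13, adjusted p = 0.0332). Without phyA-211 sucrose replicate 3, the sucrose call of PIF4 was lost (adjusted p = 0.0887) and PIF7 was called lower with sucrose (-1.07, adjusted p = 0.00733). PIF3 rose in phyA-211 with sucrose, from 36.7 to 63.8 TPM (0.79, adjusted p = 0.00655). With sucrose PIF3 (-0.71, adjusted p = 0.00552) and PIF5, listed as PIL6 (-0.48, adjusted p = 0.0181), fell in Col-0, 2 of 5 against 9.95% of all genes. In phyA-211 PIF5 fell (-0.40, adjusted p = 0.0337), 1 of 5 against 10.5% of all genes. That call was lost without phyA-211 sucrose replicate 3 (adjusted p = 0.0915). PIF1, listed as PIL5, was not called. The 5 TOPLESS corepressor genes were called in none of the comparisons. Neither were the 8 tested of 9 HD-ZIP III and little zipper genes, leaf polarity factors and their small inhibitors. Of all genes 22.1% were called in either direction for sucrose in Col-0 and 27.5% in phyA-211. Between genotypes 2.15% were called with sorbitol and 7.40% with sucrose, and 0.0101% for the interaction.

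A list of 19 other genes known to be induced early by shade was chosen with earlier results of these data known. Of these, 8 rose, 1 fell and 10 were not called in phyA-211 with sucrose (median 0.59). There 4.15% of all genes were called higher and 3.25% lower (median 0.12). With sorbitol 5 rose, 1 fell and 13 were not called (median 0.17), against 0.775% higher and 1.38% lower (median 0.09). With sucrose, 7 rose and 1 fell (median 0.48) when phyA-211 sucrose replicate 3 was left out. In that fit 4.71% of all genes were called higher and 3.43% lower. The rises with the smallest adjusted p were those of PKS4, a phytochrome substrate (1.43 with sucrose, 0.83 with sorbitol), and IAA29, an auxin-response repressor (1.04 and 0.92). FHL, which helps carry phytochrome A into the nucleus, rose by 1.30 and 1.33, and CKX5, a cytokinin-degrading oxidase, by 1.05 and 1.23. BBX24, a B-box factor listed as STO, was the gene that fell under each sugar (-0.65 and -0.51). For sucrose against sorbitol, 2 of the 19 rose and 5 fell in Col-0, where 12.1% of all genes were called higher and 9.95% lower. Without phyA-211 sucrose replicate 3, 3 rose in Col-0, PIL1 being added (0.59, adjusted p = 0.0265), against 15.9% of all genes. In phyA-211 4 rose and 3 fell, against 16.9% higher and 10.5% lower. Without phyA-211 sucrose replicate 3, 2 rose and 1 fell there, against 9.64% of all genes higher and 7.67% lower. IAA19 and CKX5 rose and PKS4 and FHL fell in each genotype, and without that library the phyA-211 calls of CKX5 (adjusted p = 0.0763) and PKS4 (adjusted p = 0.0729) were lost. PAR1, a repressor of shade responses, fell in Col-0 (-1.24). PIL1, a PIF-like shade marker, rose in phyA-211 by 1.20, and by 0.91 without that library (adjusted p = 0.0121).

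**Figure D4:**
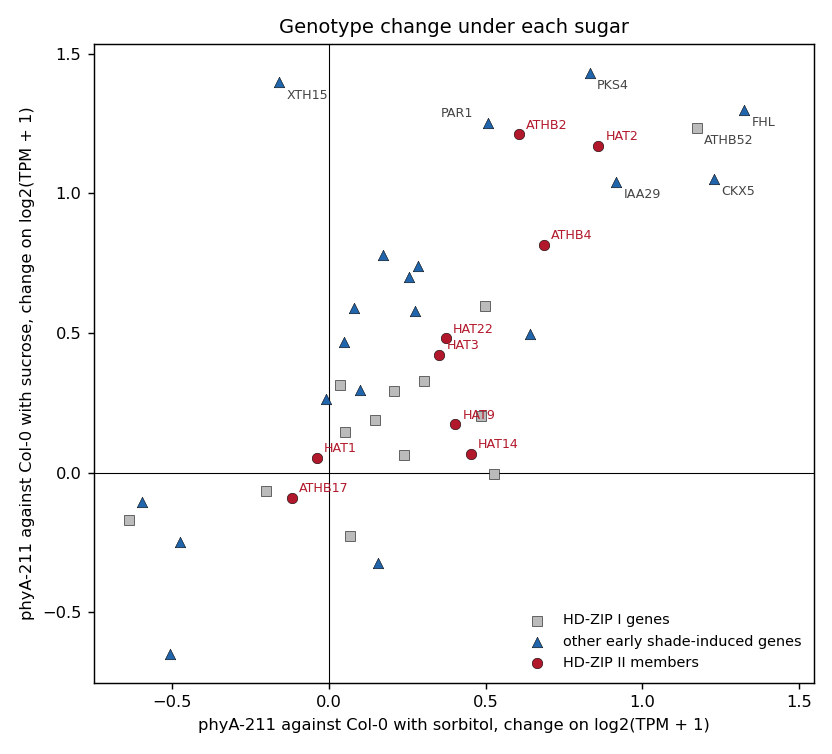
Change of phyA-211 against Col-0 with sorbitol (x axis) and with sucrose (y axis), both on the log2(TPM + 1) scale. Circles are the 9 HD-ZIP II members, triangles 19 other early shade-induced genes and squares the 13 tested HD-ZIP I genes. ATHB2, HAT2 and ATHB4 lie toward the upper right, as do IAA29, PKS4, FHL and CKX5 and the HD-ZIP I gene ATHB52. HAT1 and ATHB17 lie near the origin.

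The sister class HD-ZIP I, whose genes serve mainly in abscisic acid, drought and light responses, had 13 of its 17 genes tested. Between genotypes ATHB1 (0.60, adjusted p = 0.0471) and ATHB52 (1.23, adjusted p = 0.03) rose in phyA-211 with sucrose, 2 of 13 against 4.15% of all genes, and none was called with sorbitol. Neither ATHB1 (adjusted p = 0.102) nor ATHB52 (adjusted p = 0.0731) was called without phyA-211 sucrose replicate 3. With sucrose ATHB7 and ATHB12, both induced by abscisic acid and drought, fell in Col-0 (-1.05 and -1.71) and in phyA-211 (-1.58 and -2.00). Over these 13 genes 2 fell in Col-0, against 9.95% of all genes, and 2 fell and 1 rose in phyA-211, against 10.5% and 16.9%. The gene that rose was ATHB5 (0.48, adjusted p = 0.0312), a call lost without phyA-211 sucrose replicate 3 (adjusted p = 0.094). Without that library 3 fell in Col-0, ATHB52 being added (-0.88, adjusted p = 0.0472), against 11.9% of all genes called lower.

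Profiles were compared over the 12 libraries by the root mean square difference of log2(TPM + 1) values, each profile centred on its own mean, among 14963 genes with a mean of at least 5 TPM. The genes most like ATHB2 were AT5G12050, annotated as a rho GTPase-activating protein (0.112), AT1G69840, a membrane-associated protein with an SPFH domain (0.114), and ARI2, a RING-type protein (0.164). The group means of AT5G12050 were 65.6 TPM (Col-0, sorbitol), 48.5 TPM (Col-0, sucrose), 93.7 TPM (phyA-211, sorbitol) and 129.8 TPM (phyA-211, sucrose). Closest to HAT22 were AT2G37150, AT3G04350 and BEH4, a BES1/BZR1 homolog in brassinosteroid signalling (0.112 to 0.113). For HAT9 they were GUS1, PCK1, a phosphoenolpyruvate carboxykinase of gluconeogenesis, and OASA2 (0.148 to 0.177). For HAT14 they were AT5G37070, AHP5, a phosphotransfer protein of cytokinin signalling, and CTF2B (0.0983 to 0.109). These distances describe likeness in 4 groups only.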

How the data were processed

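The authors deposited 1 table of TPM values, per the file headers, with 1 column for each of the 12 libraries. The columns sum to between 998274.11 and 998846.46. TPM keeps no read counts, so the depth is unknown and no counting interval is given. The submitters' processing notes name fastp, cutadapt, HISAT2, DESeq2 and TAIR10. Which program made the TPM values, its use of strand and its handling of reads shared by paralogs: not given in the sources used here. Symbols came from the deposited table and from a RefSeq table of TAIR10.1, in which 32548 of 32833 identifiers and all 90 listed genes were found.

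Genes with at least 1 TPM in at least 3 libraries were kept, put on the log2(TPM + 1) scale and analysed in R 4.3.3 by limma 3.58.1 (4 group means, no replicate block, empirical Bayes with a trend, 8 residual and 3.68 prior degrees of freedom). The 5 comparisons were the sugar effect within either genotype, the genotype effect within either sugar, and their interaction. Tests are 2-sided, with Benjamini-Hochberg adjustment over 19862 genes. The script was tested on simulated data. Alternatives changed the pseudocount, filter, scaling, block, weights or groups fitted, or left out 1 library. Leaving out phyA-211 sucrose replicate 3 was extended to the other gene lists and the family sums after seeing the data. All 9 members are named. From other lists up to 4 genes with the smallest adjusted p in a comparison are named. For ATHB2, HAT9, HAT14 and HAT22 the 3 genes of most alike pattern are named. Marker genes, ASN1 and PIF1 are named outside this rule. The members and lists were chosen with earlier results of these data known.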

Additional observations from a re-analysis of the deposited data

How the results depend on the processing

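Of the 10 changes called among the members, those of ATHB2, HAT2 and ATHB4 between genotypes with sucrose and of HAT22 with sucrose in Col-0 were called under all 21 alternatives tried. For sucrose in Col-0, where 1 member was called, median ratio scaling and quantile normalization called 4 each and library weights estimated gene by gene called 6. The share of all genes called in either direction was 22.1% in the reported fit, 26.9% and 25.9% with these scalings and 45.0% with weights. For sucrose in phyA-211, 3 were called, against 1 in a fit of the compared groups alone, 5 with weights and 0 to 3 when 1 library was left out. The share of all genes was 27.5%, against 13.6%, 57.4% and 11.8% to 30.9% in turn. Between genotypes with sorbitol, 2 were called, against 1 with no filter, 0 in a fit of the compared groups alone, 1 with the replicate number as a block, 6 with weights and 0 to 3 when 1 library was left out. Over all genes 2.15% were called, against 1.42%, 1.36%, 2.08%, 25.3% and 0.769% to 3.97% in turn. Between genotypes with sucrose, 4 were called, against 3 with quantile normalization or the compared groups alone, 5 with a filter at 5 TPM, 6 with weights and 3 to 5 when 1 library was left out. Over all genes 7.40% were called, against 7.60%, 3.29%, 9.52%, 43.4% and 2.87% to 8.15% in turn. A count can stand while its genes change: with sorbitol, median ratio scaling and quantile normalization each lost ATHB4 and gained ATHB2. The interaction had 0 called members and 2 with weights, and 0.0101% of all genes were called, against 6.93% with weights. The weights thus raised calls over all genes in each comparison. The weights were added after seeing the data, because limma's default estimate gave nearly all weight to 3 libraries and was not used. The cause of these differences was not tested.

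Directions turned in 27 cases, none called under either setting, and their sizes in the reported fit did not exceed 0.23. Gene-by-gene weights gave 0.18 for ATHB4 (sucrose in Col-0), 0.041 for HAT1 (genotype with sorbitol), 0.11 for HAT9 (interaction) and 0.20 for ATHB17 (genotype with sucrose). Median ratio scaling gave -0.012 for ATHB4 (sucrose in phyA-211), -0.065 for HAT1 and -0.022 for HAT14 (both genotype with sucrose), and quantile normalization gave -0.051 for HAT1 there. A pseudocount of 0.1 gave -0.030 for the interaction of ATHB17. With 1 library left out, ATHB4 ranged from -0.13 to 0.14 (sucrose in Col-0) and from -0.011 to 0.26 (interaction). HAT1 ranged from -0.11 to 0.0077 (genotype with sorbitol) and from -0.021 to 0.14 (with sucrose), and HAT2 from -0.20 to 0.041 (sucrose in phyA-211). HAT14 ranged from -0.033 to 0.14 and ATHB17 from -0.25 to 0.10 (both genotype with sucrose). The interaction ranged from -0.016 to 0.24 for HAT22 and from -0.13 to 0.22 for ATHB17.

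The replicate numbers gave no consistent sign of pairing: over 18 same-numbered pairs the correlation of deviations ran from -0.27 to 0.31, above 0.1 in 6. Such correlations cannot show that the samples were unpaired. With the replicate block 1, 3, 1, 4 and 0 members were called in the 5 comparisons. Of all genes 20.3%, 25.1%, 2.08%, 6.47% and 0.00503% were called in turn. A filter at 5 TPM left HAT14 and ATHB17 without a value. TPM holds no depth, so counting error is unknown and least certain for those 2 genes.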

Other observations

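ATHB18, the remaining HD-ZIP II gene of Arabidopsis and no member of the set above, was listed at 0.20 to 0.86 TPM in the 12 libraries and did not reach the level required for a test. Among the 9 members, the profiles most alike over the 12 libraries were those of the paralogs HAT9 and HAT22, with a root mean square difference of 0.18 on the log2(TPM + 1) scale. Next came HAT1 with HAT3 and ATHB2 with HAT2, both at 0.23, and ATHB2 with ATHB4 at 0.25. These values describe the same libraries as the comparisons above and carry no test.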
